A study of Mus musculus with 8 samples.

Results

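The replication-dependent histone genes encode the core histones H2A, H2B, H3 and H4 and the linker histone H1. They were taken by gene symbol (H1f1 to H1f5 and the H2ac, H2bc, H3c and H4c series) from probe sets that the platform annotation gives to 1 gene, with no filter on level, which found 27 of the 19938 genes named on the array. These were 5 H1, 4 H2A, 9 H2B, 3 H3 and 6 H4 genes, each with 1 probe set. The symbol pattern also took H1f10, a linker histone made throughout the cell cycle, and H2ac1 and H2bc1, known as testis histones, so that 24 genes were left without these. In all, 22 of the 27 lie in the large cluster on chromosome 13, 4 in the cluster on chromosome 3, and H1f10 on chromosome 6.

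Replication-dependent histone genes are transcribed in S phase, when newly made DNA has to be packed into nucleosomes. Their messenger RNAs lack introns and, unlike other messenger RNAs, usually end in a stem-loop bound by the protein Slbp instead of a poly(A) tail. Naive T cells at rest do not divide, and stimulation through the antigen receptor brings them into the cell cycle, so that these transcripts accompany the first rounds of DNA replication.

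The measurements were log2 signals of Affymetrix whole-transcript arrays, 8 in all. The cells were naive CD4 T cells, wild type (WT) on 4 arrays and with a T cell-specific conditional Bcl6-/- genotype (KO) on the other 4; Bcl6 is a transcriptional repressor that follicular helper T cells need. All cells were stimulated for 24 hours with antibodies against CD3 and CD28 in the presence of IL6 and IL21, while IL-4, IFNg and TGFb were blocked with antibodies. The labels give the resulting cell type as follicular helper T (Tfh) cells. The Cre driver, the age of the mice and the number of mice behind each array are not given in the sources used here, and so p-values here reflect how these arrays varied, which may be technical.

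Bcl6 itself, the gene targeted in the KO mice, read 8.61, 8.91, 8.78 and 8.79 in WT arrays 1 to 4 and 9.08, 9.15, 9.18 and 9.19 in KO arrays 1 to 4. All KO-labelled values lay above all WT-labelled values, where loss of the transcript would have given lower ones (difference 0.38 ± 0.0679, SE; limma adjusted p = 0.0595). Bcl6 was called higher without KO replicate 1 (limma adjusted p = 0.0244, 1.24% of all genes called higher). In a fit limited to genes above the 40th percentile of all signals it was also called higher (limma adjusted p = 0.0335, 0.477% of those genes). The position of the probe set relative to the deleted part is not given, and the labels were therefore not checked by it. KO and WT below mean arrays labelled so. Arrays correlated at r between 0.993 and 0.998 across genes. KO replicate 1 stood apart, as its values deviated from the group mean by a median of 0.125 (log2) where KO replicates 2 to 4 deviated by 0.0475 to 0.08, and it correlated best with WT replicate 3. The T cell genes Cd3e (12.97 to 13.14) and Cd4 (12.38 to 12.56) were high in all 8 arrays, as were Icos (12.12 to 12.25) and Il21 (12.21 to 12.45), whereas the Tfh receptor gene Cxcr5 read 7.27 to 8.11. Of 7 B cell and 8 myeloid markers, 2 and 2 passed a filter at the 40th percentile of all signals. Of the 8 myeloid markers, 4 were higher in KO. Cst3, a myeloid marker past the filter, read 11.67 to 11.92, with all KO arrays below all WT arrays (difference -0.16, limma adjusted p = 0.272). Lyz2, which did not pass the filter, differed by 0.46 (limma adjusted p = 0.241). The mean over 6 CD8 T cell markers ran from 9.47 to 9.99 in the WT and 9.28 to 9.62 in the KO arrays. Single markers went both ways. For Nkg7, Crtam and Prf1 all KO arrays lay below all WT arrays (4.86% of all genes). Their differences, KO minus WT, were -0.89, -0.54 and -0.44 (limma adjusted p = 0.165, 0.131 and 0.192). Without KO replicate 1, Crtam was called lower (limma adjusted p = 0.044), in a fit that called 355 of 19938 genes in either direction. The groups overlapped for Gzmb (0.35), Cd8a (-0.04) and Cd8b1 (0.03). The part of these markers in the histone result was not tested.

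Most histone genes read slightly higher in the KO-labelled arrays, and none passed the threshold over 8 arrays. Of the 27, 24 had a higher mean in KO, with a median difference of 0.18 on the log2 scale, against a median of -0.01 over all genes, of which 46.8% were higher in KO. With limma and Benjamini-Hochberg adjustment over all 19938 genes at a threshold of 0.05, 0 of 27 histone genes were called in either direction, where 0.186% of all genes were called higher and 0.105% lower (0.291% in all). At an unadjusted limma p under 0.05, 17 histone genes were higher and 1 was lower, against 4.55% and 5.98% of all genes. The KO and WT arrays did not overlap in 8 histone genes, all higher in KO, against 2.49% of all genes higher and 4.86% lower. Those 8 were H1f3, H1f5, H2bc8, H2bc9, H2bc14, H3c4, H3c15 and H4c6. Without H1f10, H2ac1 and H2bc1 the count was 22 higher of 24, with a median of 0.21.

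The mean over the 27 genes was 9.45, 9.45, 9.44 and 9.55 in WT arrays 1 to 4, and 9.63, 9.76, 9.61 and 9.71 in KO arrays 1 to 4. The groups did not overlap, and WT replicate 4 was the WT array nearest to the KO arrays. Relative to the WT mean of each gene, 23 to 25 of the 27 genes were higher in each KO array, KO replicate 1 included (24 genes). The same count was 14, 8, 12 and 20 in WT arrays 1 to 4. Without WT replicate 4, 17 histone genes did not overlap between the groups (all higher in KO, 4.25% of all genes), and 5 did not after the median of each array had been subtracted (1.97% of all genes). In RNA from a whole culture, more cells in S phase and more histone RNA per cell cannot be told apart, and because arrays were normalized to like distributions a change in total RNA cannot be seen.

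**Figure D1:**
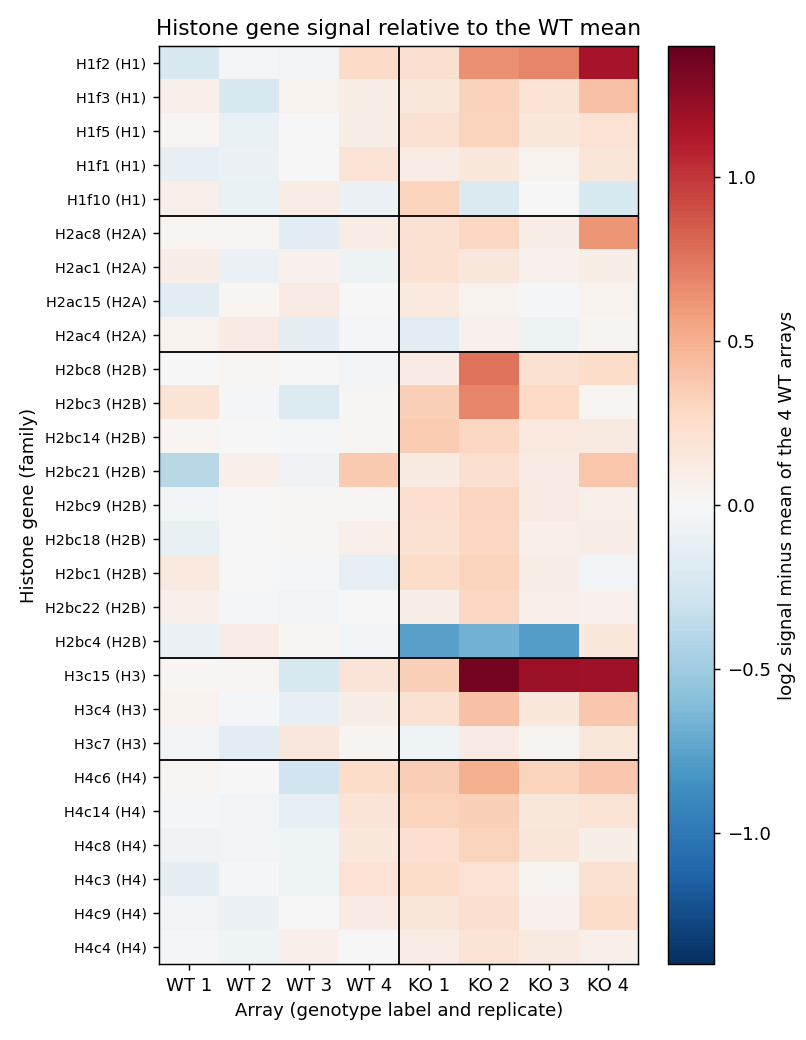
Log2 signal of the 27 histone genes (rows, grouped by family) in each of the 8 arrays (columns), as the difference from the mean of the 4 WT arrays for that gene. KO columns are mostly red, H3c15 and H1f2 most of all, and H2bc4 is blue in KO replicates 1 to 3 but not in KO replicate 4.

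Without KO replicate 1, the array that stood apart, the median difference of the 27 genes was again 0.18, and 25 were higher, while the median of all genes was -0.03. The groups then did not overlap in 9 histone genes, higher in KO (7.76% of all genes). In that fit H3c15 and H1f2 rose (2 of 27 called higher, against 1.24% of all genes), with limma adjusted p of 0.000308 and 0.0226. Without KO replicate 4, H2bc4 was called lower (limma adjusted p = 0.00254, 0.0652% of all genes called lower). Leaving out any of the other 6 arrays gave 0 called histone genes. Array weights, which set KO replicate 1 to 0.197, gave 7 histone genes called higher (H1f2, H1f3, H1f5, H3c4, H3c15, H4c6 and H4c14; 2.51% of all genes), and an intensity trend with a robust prior gave 2 (H1f5 and H3c15; 0.602% of all genes).

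**Figure D2:**
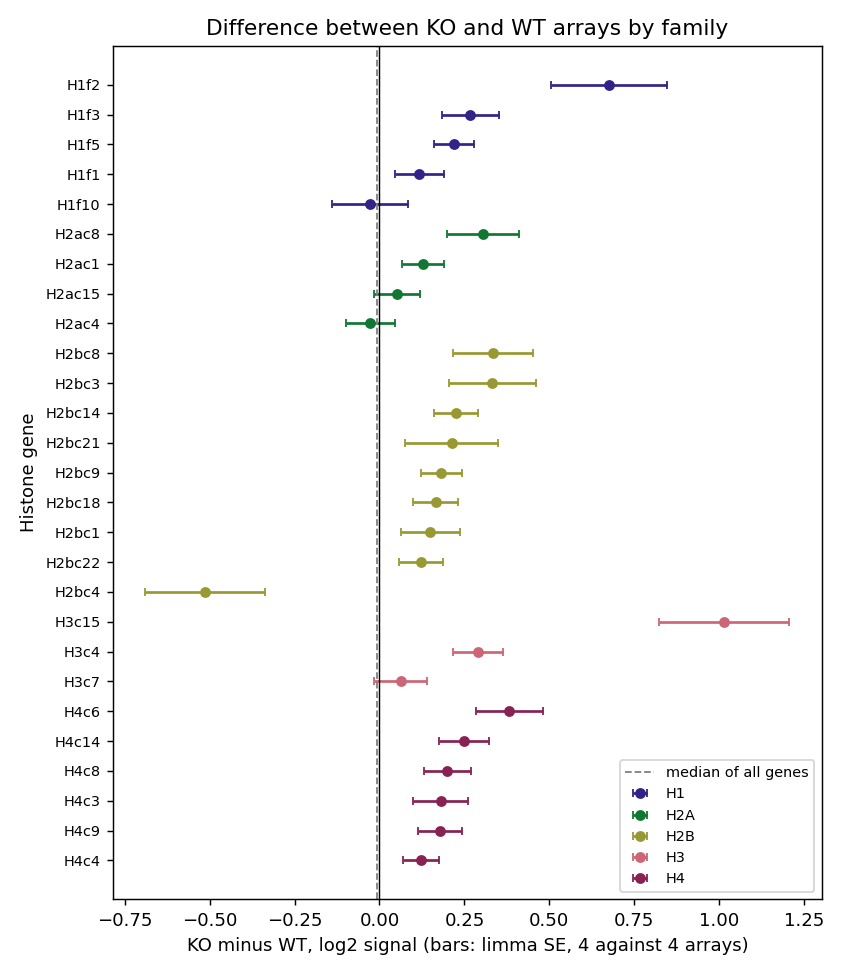
Difference between the 4 KO and 4 WT arrays in log2 signal for each histone gene, with limma standard errors, coloured by family, and the median of all genes as a dashed line. The 6 H4 genes lie between 0.12 and 0.38, H3c15 stands at 1.01 and H2bc4 at -0.51.

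The DNA just before the start of a histone gene holds short elements known from histone promoters, among them the TATA box, the CCAAT box and, in H2B genes, the octamer bound by Oct-1. The 250 bases before the annotated start were read from the RefSeq promoter table (build GRCm38.p6), which held 23 of the 27 genes. H2bc21, H2bc4, H3c7 and H4c14 were not among them. The 5 below are shown because they belong to the genes with the largest positive differences in 4 families, and H2bc14 because its groups did not overlap and it holds an octamer. They are H1f2 (chr13:23738557-23738806, plus strand), H2bc8 (chr13:23571150-23571399, plus strand), H2bc14 (chr13:21721794-21722043, plus strand), H3c15 (chr3:96239128-96239377, minus strand) and H4c6 (chr13:23551669-23551918, minus strand), each written 5′ to 3′ towards the gene. Capitals mark the TATA box letters (TATAAA), the CCAAT box letters (CCAAT) and the octamer letters (ATTTGCAT), on either strand.
H1f2: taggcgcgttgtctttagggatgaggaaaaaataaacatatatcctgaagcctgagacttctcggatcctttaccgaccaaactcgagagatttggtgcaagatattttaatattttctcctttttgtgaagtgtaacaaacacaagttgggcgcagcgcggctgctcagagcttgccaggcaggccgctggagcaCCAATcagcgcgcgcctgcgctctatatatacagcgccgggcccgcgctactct
H2bc8: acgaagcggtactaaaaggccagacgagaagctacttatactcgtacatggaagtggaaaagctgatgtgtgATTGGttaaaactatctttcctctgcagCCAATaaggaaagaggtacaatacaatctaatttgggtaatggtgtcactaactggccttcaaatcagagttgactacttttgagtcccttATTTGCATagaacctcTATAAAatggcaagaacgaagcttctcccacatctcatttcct
H2bc14: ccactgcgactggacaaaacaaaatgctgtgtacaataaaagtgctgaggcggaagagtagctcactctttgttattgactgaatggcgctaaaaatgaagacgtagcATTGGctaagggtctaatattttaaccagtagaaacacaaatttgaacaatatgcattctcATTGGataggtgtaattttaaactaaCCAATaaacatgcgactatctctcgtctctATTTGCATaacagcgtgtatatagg
H3c15: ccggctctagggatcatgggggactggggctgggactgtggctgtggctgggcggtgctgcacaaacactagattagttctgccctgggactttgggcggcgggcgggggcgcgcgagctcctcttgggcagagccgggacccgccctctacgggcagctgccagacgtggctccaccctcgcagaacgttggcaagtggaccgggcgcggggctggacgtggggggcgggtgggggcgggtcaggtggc
H4c6: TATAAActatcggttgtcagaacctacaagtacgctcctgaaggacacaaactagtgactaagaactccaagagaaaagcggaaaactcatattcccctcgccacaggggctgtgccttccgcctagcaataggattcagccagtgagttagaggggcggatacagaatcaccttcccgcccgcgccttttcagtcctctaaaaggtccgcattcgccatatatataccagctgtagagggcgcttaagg

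The octamer ATTTGCAT was found on either strand in 8 of 23 histone windows, against 1.6% of all 32851 windows of the table. It was in 5 of 7 H2B and 3 of 4 H2A windows and in none of the 5 H1, 2 H3 and 5 H4 windows. The H2A genes with it are H2ac1, H2ac4 and H2ac8, and the windows of H2ac8 and H2bc8, which are read from opposite strands, share 179 of 250 bases, as those of H2ac1 and H2bc1 share 220, so that the octamer counts of the H2A and H2B genes are not independent. The CCAAT box letters were found in 18 windows (33.8% of all windows), all 7 of H2B and all 4 of H2A among them, and the TATA box letters in 14 (12.4% of all windows). In the printed sequences the octamer of H2bc8 begins 59 bases and that of H2bc14 25 bases before the annotated start. The letters TATAAA of H4c6 lie at the far end of its window, and the H3c15 window holds none of the motifs. Only these exact letters were searched. The letters TATATA, which H1f2, H2bc14 and H4c6 hold near the gene end of their windows, are not marked or counted. In these 5 windows no motif overlapped another. The letters TTCCTAGAA, a core of the sequence bound by Bcl6, are in 0 of the 23 windows (0.347% of all windows). The median difference was 0.20 for the 8 genes with an octamer and 0.18 for the other genes with a window.

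H3 genes encode the histone that carries many of the best known chromatin marks. H3c15 had the largest difference of all 27 genes. It read 7.08, 7.08, 6.83 and 7.24 in WT arrays 1 to 4 and 7.39, 8.40, 8.26 and 8.24 in KO arrays 1 to 4. All KO values lay above all WT values, but KO replicate 1 was closer to the WT arrays than to the other KO arrays. The mean went from 7.06 ± 0.169 to 8.07 ± 0.461 (SD, n = 4), a difference of 1.01 ± 0.192 (SE), or 2.02-fold, with a limma adjusted p of 0.0734. The exact permutation p, two-sided, was 0.0286, the smallest that 4 against 4 arrays can give. Without KO replicate 1 the difference was 1.24 (limma adjusted p = 0.000308), and in a fit limited to the 12573 genes past the filter at the 40th percentile the limma adjusted p over 8 arrays was 0.049 (0.477% of those genes called higher).

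The probe set of H3c15 rests on 1 cDNA record. A further probe set, which the annotation shares among 12 H3 genes, lists the same record, and it read 14.27, 14.29, 14.33 and 14.29 in WT arrays 1 to 4 and 14.37, 14.39, 14.30 and 14.27 in KO arrays 1 to 4. These groups overlapped, with a difference of 0.04, against 1.01 in the H3c15 set. The shared set pools 12 genes and lay near the top of the scale, where the highest value on any array was 14.8. A change in 1 gene may therefore not be seen in it. Whether the 2 probe sets differ was not tested.

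H3c4 read 8.10, 8.03, 7.93 and 8.13 in the WT arrays and 8.26, 8.46, 8.20 and 8.43 in the KO arrays. Its groups did not overlap, with a difference of 0.29 ± 0.0744 (SE, n = 4 and 4, limma adjusted p = 0.165). The probe set of H3c4 also rests on 1 cDNA record, which 8 shared probe sets list. H3c7 read 5.66 to 5.98 and 5.76 to 5.98, almost the same range in both groups. Its signal lay in the low part of the array and did not pass the filter at the 40th percentile.

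H1 genes encode linker histones, which bind the DNA between nucleosomes. H1f2, one of the somatic linker histones, read 8.28, 8.48, 8.46 and 8.77 in WT arrays 1 to 4 and 8.72, 9.14, 9.18 and 9.65 in KO arrays 1 to 4. The groups overlapped only between WT replicate 4 and KO replicate 1, and replicate 4 was the highest array in both groups. The difference was 0.68 ± 0.17 (SE, 1.6-fold, limma adjusted p = 0.16; exact permutation p = 0.0571). Without KO replicate 1 it was 0.83, with a limma adjusted p of 0.0226.

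H1f5, another somatic linker histone, read 11.97, 11.85, 11.94 and 12.03 in the WT arrays and 12.16, 12.26, 12.10 and 12.15 in the KO arrays. The KO values were all higher, with a difference of 0.22 ± 0.0593 (SE, limma adjusted p = 0.191). H1f3 did not overlap either (6.27 to 6.58 against 6.64 to 6.89, a difference of 0.27), although its signal did not pass the filter on low values. H1f1 differed by 0.12, with overlap, and by 0.08 without WT replicate 1 and 0.18 without WT replicate 4. H1f10, which is not tied to S phase, read 7.70, 7.53, 7.73 and 7.54 in the WT arrays and 7.94, 7.42, 7.62 and 7.41 in the KO arrays. Here KO replicate 1 was the highest of all arrays KO replicates 2 and 4 were the lowest; the difference was -0.03 ± 0.112 (SE, limma adjusted p = 0.974), and 0.01 with quantile normalization applied again.

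**Figure D3:**
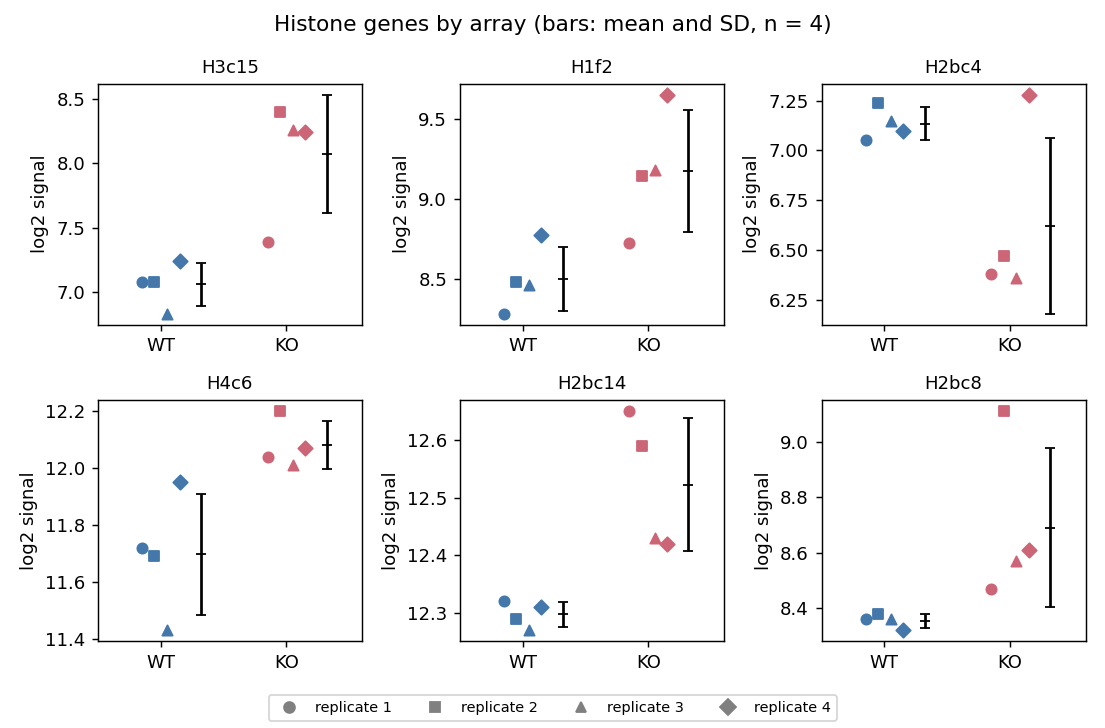
Log2 signal of H3c15, H1f2, H2bc4, H4c6, H2bc14 and H2bc8 in each array, by genotype label, with a marker for each replicate number and bars for the mean and SD (n = 4). KO replicate 1 lies near the WT arrays for H3c15 but not for H2bc14, and KO replicate 4 alone lies with the WT arrays for H2bc4.

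H4 genes differ little in the protein they encode, and all members of this family had a higher mean in KO, as did the 3 H3 genes. Its 6 genes differed by 0.12 to 0.38, with a median of 0.19, and all 6 had an unadjusted limma p under 0.05 (4.55% of all genes, higher), while their limma adjusted p ran from 0.165 to 0.465. H4c6 read 11.72, 11.69, 11.43 and 11.95 in WT arrays 1 to 4 and 12.04, 12.20, 12.01 and 12.07 in KO arrays 1 to 4. All KO values were higher, with a difference of 0.38 ± 0.0981 (SE, 1.3-fold, limma adjusted p = 0.165). H4c4 read 14.08, 14.03, 14.16 and 14.10 against 14.20, 14.28, 14.22 and 14.16. It met the WT range only at 14.16, and its signals lay near the top of the scale, where the highest value on any array was 14.8. H4c14 in the chromosome 3 cluster (0.25), H4c8 (0.20), H4c3 (0.18) and H4c9 (0.18) each overlapped between the groups. The mean over the 6 genes was 11.0 ± 0.102 in WT and 11.2 ± 0.0639 in KO arrays (SD, n = 4), and WT replicate 4 (11.16) reached the KO range of 11.15 to 11.30.

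H2B genes encode the partner of H2A in the nucleosome. Of the 9, 8 were higher in KO, by 0.12 to 0.34, and H2bc4 was lower. H2bc14 read 12.32, 12.29, 12.27 and 12.31 in WT arrays 1 to 4 and 12.65, 12.59, 12.43 and 12.42 in KO arrays 1 to 4. The WT arrays were tightly grouped and all KO arrays lay above them, KO replicate 1 highest, with a difference of 0.23 ± 0.0636 (SE, limma adjusted p = 0.206). H2bc8 read 8.36, 8.38, 8.36 and 8.32 against 8.47, 9.11, 8.57 and 8.61. Again the groups did not overlap, and KO replicate 2 stood above the others; the difference was 0.34 ± 0.118 (SE, limma adjusted p = 0.322), and 0.20 without KO replicate 2. H2bc9 was the third H2B gene without overlap (11.81 to 11.87 against 11.92 to 12.15), with a difference of 0.18. H2bc3 differed by 0.33, H2bc21 by 0.21, H2bc18 by 0.17, H2bc1 by 0.15 and H2bc22 by 0.12, all with overlapping groups. The low signal of H2bc22 did not pass the filter at the 40th percentile. The differences of these genes rested partly on single arrays. H2bc21 was 0.08 without WT replicate 1 and 0.34 without WT replicate 4, and without KO replicate 2 H2bc3 was 0.21, H2bc1 0.10 and H2bc22 0.07.

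H2bc4 went the other way in 3 of 4 KO arrays. It read 7.05, 7.24, 7.15 and 7.10 in WT arrays 1 to 4 and 6.38, 6.47, 6.36 and 7.28 in KO arrays 1 to 4. KO replicates 1 to 3 were all below the WT arrays, and KO replicate 4 was above them. The difference was -0.51 ± 0.176 (SE, limma adjusted p = 0.312), and -0.73 without KO replicate 4 (limma adjusted p = 0.00254). KO replicate 1 lay with KO replicates 2 and 3 here, unlike in H3c15.

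Among probe sets of 1 gene, H2A was the family with the smallest median difference, 0.09 over 4 genes. None of its genes separated the groups. With 10 shared H3 sets added, each listing 12 genes, the H3 median was smaller, at 0.0375. H2ac8 read 5.65, 5.65, 5.48 and 5.73 in the WT arrays and 5.84, 5.92, 5.72 and 6.25 in the KO arrays, a difference of 0.30 ± 0.105 (SE, limma adjusted p = 0.313), and 0.20 without KO replicate 4. Only KO replicate 3 fell below the highest WT array, but these were low signals that did not pass the filter at the 40th percentile. Its neighbour H2bc8, which shares most of its promoter window, differed by 0.34, and the array with the highest value was KO replicate 4 in the first and KO replicate 2 in the second. H2ac15 read 13.08, 13.26, 13.35 and 13.23 against 13.37, 13.28, 13.20 and 13.28 (difference 0.05, from 0.0025 to 0.09 with 1 array left out), and H2ac4 10.77, 10.83, 10.58 and 10.69 against 10.57, 10.78, 10.65 and 10.76 (difference -0.03, limma adjusted p = 0.96). In both genes the KO values lay within the WT range except in KO replicate 1, which was just above it in the first and just below it in the second. H2ac1 differed by 0.13, with overlap. Whether H2A differed from the other families was not tested.

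Many histone genes are near-identical copies, and 18 of the 27 also appear in the annotation of probe sets shared by several genes, so that a value for 1 gene may hold signal from its copies. The 26 shared probe sets with at least 1 symbol that fits the symbol pattern all had a higher mean in KO, with a median difference of 0.12. The groups did not overlap in 13, where 2.49% of all genes did not overlap in that direction. A shared set need not name any of the 27 genes. No gene is named from them. The 10 H3 sets, each listing 12 genes, read between 14.08 and 14.39, near the top of the scale. They differed by 0.01 to 0.08, with overlap in all 10. The 6 H4 sets differed by 0.12 to 0.46 and did not overlap in any case, and neither did 6 of the 7 H2B sets, which differed by 0.12 to 0.14. The H4 sets that list 11 genes also read near the top of the scale, between 13.92 and 14.18, and differed by 0.12 to 0.15. The 2 sets shared by H2A and H3 genes differed by 0.07 and 0.08, and 1 set shared by an H1 and an H2B gene by 0.27, without overlap. No H1 gene of the 27 is in a shared set, so the H1 gene of that set is outside the 27. Some of these sets hold identical values in all arrays, so that they are not separate measurements. Added to the fit, none of the 26 passed the threshold. The lowest limma adjusted p was 0.103, for a set shared by 2 H4 genes, which need not be among the 27.

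**Figure D4:**
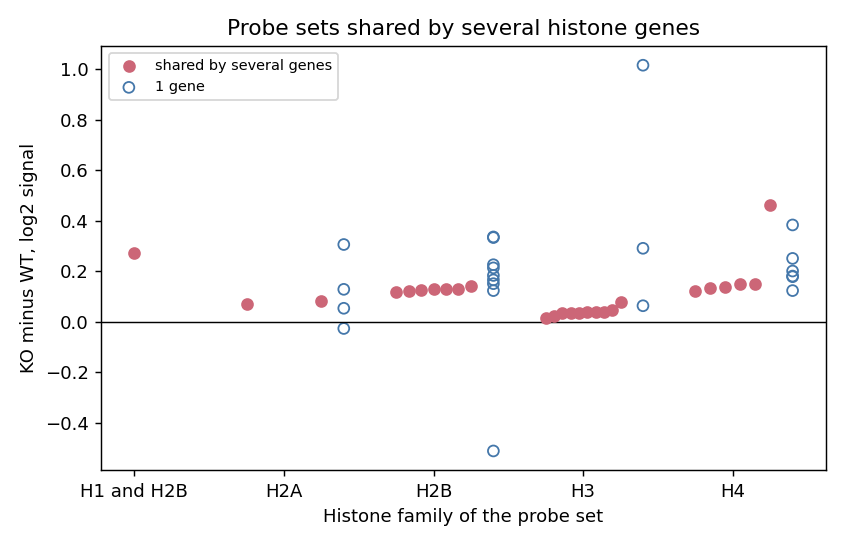
Difference between KO and WT arrays in log2 signal for the 26 probe sets shared by several genes (filled points, by histone family, with the sets of H2A and H3 genes under H2A) beside the probe sets of 1 gene of the same family (open circles). Shared H3 sets lie close to 0, between 0.01 and 0.08, and shared H2B and H4 sets between 0.12 and 0.46.

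Genes for making histone messenger RNA and for handling histone proteins were split evenly between higher and lower means. Of 19 genes of histone mRNA processing and transcription, 0 passed the threshold and 10 were higher in KO (46.8% of all genes). Their median difference was 0.01. Slbp, which binds the stem-loop, read 11.15 to 11.24 in WT and 11.08 to 11.35 in KO arrays (difference 0.04, limma adjusted p = 0.919). Npat, the coactivator of histone genes in S phase, differed by 0.10 (limma adjusted p = 0.635) and Casp8ap2, which encodes the processing factor FLASH, by 0.08 (limma adjusted p = 0.75). The smallest p belonged to Sympk, which encodes the cleavage scaffold symplekin, at -0.19 (limma adjusted p = 0.222), with all KO arrays below all WT arrays. Of 20 histone chaperone genes, which hand histones to DNA, 9 were higher (46.8% of all genes) and 0 passed. At an unadjusted limma p under 0.05, 1 of these was higher and 3 were lower, against 4.55% and 5.98% of all genes. Cabin1 had the smallest p, at -0.20 (limma adjusted p = 0.222), with all KO arrays below all WT arrays (4.86% of all genes). The chaperone median was -0.02, which turned to 0.04 without KO replicate 1.

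Most genes of a list of histone variants had a slightly lower mean in KO. Of 9 on the array, H1f10 among them, 3 were higher in KO (46.8% of all genes) and 0 passed, with a median of -0.03. H2ax, whose protein marks DNA breaks when phosphorylated, read 9.97 to 10.14 in WT and 9.85 to 10.10 in KO arrays (difference -0.07, limma adjusted p = 0.84). H3f3a, which encodes the replacement histone H3.3, read 6.38 to 6.55 and 6.45 to 6.53 (0.01, limma adjusted p = 0.976). This was a low signal that did not pass the filter at the 40th percentile. Macroh2a1, a variant with an added globular domain, had the smallest p, at -0.18 (limma adjusted p = 0.222). Whether these lists differed from the 27 genes was not tested.

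S phase genes were close between the groups, and nearly all mitotic genes had a higher mean in KO. The mean over 39 S phase genes was 11.26 to 11.31 in the WT arrays and 11.22, 11.30, 11.34 and 11.36 in KO arrays 1 to 4. KO replicate 1 was lowest of all 8 arrays here, while its histone mean lay above all WT arrays. The median difference of the S phase list was 0.02, with 25 of 39 higher (46.8% of all genes) and 0 called. Without KO replicate 1 the median was 0.06. Pcna, the sliding clamp of DNA replication, differed by 0.13 (13.65 to 13.73 against 13.74 to 13.86, limma adjusted p = 0.388), and Cdt1, an origin licensing factor, by -0.26 (limma adjusted p = 0.0989). Without KO replicate 1, Ccne2, a cyclin of the entry into S phase, was called higher (difference 0.31) and Cdt1 lower (-0.23). In that fit 1.24% of all 19938 genes were called higher, and 355 were called in either direction.

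Of 22 mitotic genes, 21 were higher (46.8% of all genes), with a median of 0.24. Nusap1, a spindle protein, rose by 0.49 (limma adjusted p = 0.0365), the 1 call over 8 arrays (0.186% of all genes called higher). Without KO replicate 1, 12 of the 22 were called higher (1.24% of all genes), and the median was 0.29. The mean of the mitotic list was 10.49 to 10.58 in the WT arrays and 10.59, 10.81, 10.87 and 10.77 in KO arrays 1 to 4, so that KO replicate 1 lay beside the highest WT array. Mki67, a marker of cycling cells, differed by 0.20 (limma adjusted p = 0.272). The part of these lists in the histone result was not tested.

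**Figure D5:**
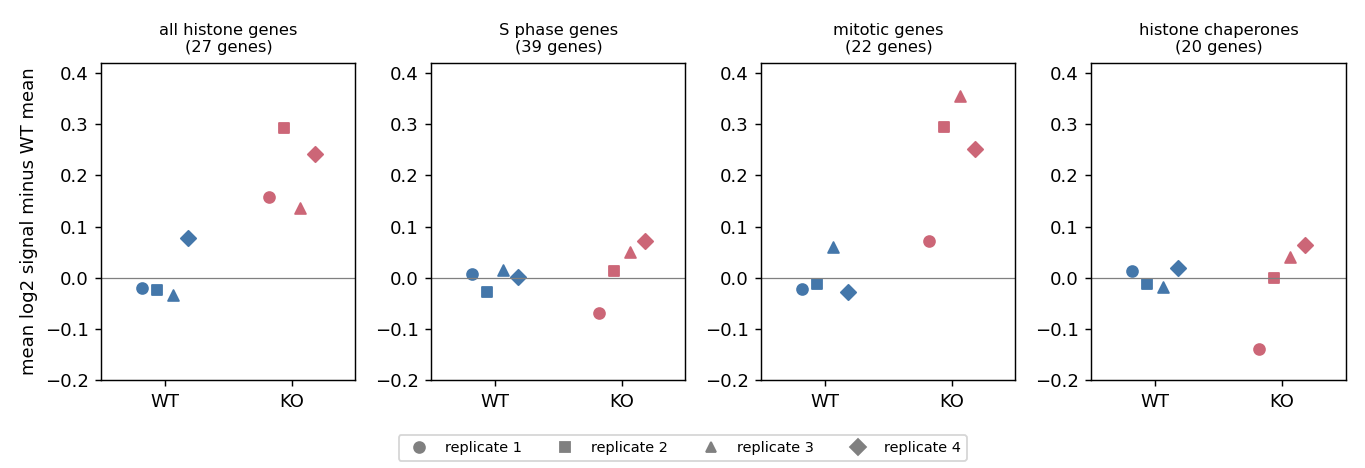
Mean log2 signal over all histone genes, S phase genes, mitotic genes and histone chaperones in each array, minus the mean of the 4 WT arrays, with a marker for each replicate number. The KO arrays lie above the WT arrays for the histone genes, and KO replicate 1 is the lowest array for S phase genes and chaperones.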

How the data were processed

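Total RNA (100 ng) was labelled by the Affymetrix whole-transcript protocol without prior ribosomal RNA reduction, per the labels' protocols. For each array the authors deposited log2 signals of all probe sets, and RMA and Partek are the tools named, per the submitters' processing notes; versions, genome build and annotation release are not given in the sources used here. RMA makes array distributions alike (medians 7.35 to 7.42 over 35556 probe sets). Symbols came from the platform annotation: 21789 probe sets had 1 symbol, 1621 several and 12146 none here. The probe set with the highest mean stood for a gene. KO was compared with WT by limma 3.58.1 in R 4.3.3 (lmFit, eBayes, no block, no expression filter), with Benjamini-Hochberg adjustment over 19938 genes. Differences are KO minus WT. Single genes also received a two-sided exact permutation test (scipy 1.17.1). The limma fit was tested on simulated data with independent noise for each gene, and the other steps were not tested in this way. The number of arrays limits the precision.

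The histone genes and the other gene lists were chosen with earlier results of these data known. Values in every array are given for histone genes past the threshold over 8 arrays or without KO replicate 1, and per family for the genes with the highest mean and the largest differences in each direction. For the other lists, a fixed set of genes is named, with some of those past the threshold or with the smallest p. Alternatives were another quantile normalization, median centring, filters at the 40th and 50th percentile, another variance prior, array weights, other treatments of probe sets, a replicate block, and leaving arrays out.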

Additional observations from a re-analysis of the deposited data

Results flagged for a closer look

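In 7 of 66 groups of 4 values (27 genes and 6 means, in WT and in KO), 1 array lay far from the other 3, where chance gives about 3.3. In KO arrays these were H3c15 in replicate 1 (7.39, the others 8.24 to 8.40), H2bc4 in replicate 4 (7.28, the others 6.36 to 6.47) and H2bc22 in replicate 2 (7.03, the others 6.80 to 6.82). In WT replicate 4 they were H4c8 (7.81, the others 7.60 to 7.63), the mean of the H4 genes (11.16, the others 10.94 to 10.97) and the mean of all 27 genes (9.55, the others 9.44 to 9.45). H1f3 was low in WT replicate 2 (6.27, the others 6.53 to 6.58).

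Probe sets shared by several genes, which the comparisons of single genes leave out, were also higher in KO. The median difference was 0.13 over 7 sets shared by H2B genes and 0.14 over 6 shared by H4 genes.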

How the results depend on the processing

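The median difference stayed between 0.16 and 0.23 under all alternatives run on histone genes alone, and was 0.14 and 0.13 with shared probe sets added (44 and 53 features), with 24 or 25 of 27 genes higher, or 20 of 23 and 18 of 20 with the filters at the 40th and 50th percentile, and the family medians moved by less than the spread between arrays except for H3. The H3 median was 0.65 with the filter at the 40th percentile, which leaves 2 H3 genes, and 0.0375 with shared probe sets added, with or without those that also name other genes. The count of histone genes called higher, 0, became 1 with that filter, 2 with an intensity trend and robust prior, 7 with array weights, 1 without KO replicate 1 and WT replicate 3 together, and 1 at a threshold of 0.1. With 1 array left out it ran from 0 to 2, and the count called lower from 0 to 1. The count over all genes, 58, was 147 with quantile normalization again, 31 with median centring, 111 and 220 with the filters at the 40th and 50th percentile, 250 with the trend, 937 with array weights, 148 without KO replicate 1 and WT replicate 3, 18 and 129 at thresholds of 0.01 and 0.1, and 11 to 355 with 1 array left out. Histone genes at an unadjusted p under 0.05, 18 in all, numbered 31 of 53 when all shared probe sets, a choice made after seeing the data, were added. The difference of H1f10 turned to 0.0069 with quantile normalization again, and with 1 array left out it ran from -0.1417 (without KO replicate 1) to 0.035 (without KO replicate 4). That of H2ac4 ran from -0.0733 (without WT replicate 3) to 0.0125 (without KO replicate 1), and neither was called anywhere. The cause of these changes was not tested.

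Replicate numbers were not taken to pair the arrays: same-numbered arrays deviated together with correlations of 0.006, 0.1, -0.145 and 0.291, not all over 0.1, although 3 of 4 WT arrays correlated best with the KO array of their own number, a hint from the data and not from the design. With the replicate block, 20 genes were called, and 1 histone gene, H1f2, was called higher (limma adjusted p = 0.044).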
